A study of Mus musculus with 3 samples.

Results

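The let-7 family was described in dendritic cells grown from mouse bone marrow (BMDCs), myeloid cells that take up antigen and present it to T cells. Its members were taken by name, as the probes named let-7a, let-7b, let-7c, let-7d, let-7e, let-7f, let-7g, let-7i and miR-98 without the star forms, which gave 9 of the 568 mouse miRNA names and 13 of the 579 mouse probes. The ID8 group was BMDCs cultured with ID8, an ovarian tumour line of the mouse, and the CT-26 group was BMDCs cultured with CT-26, a colon carcinoma line of the mouse. Both sat in transwell plates, which let soluble factors pass but keep the cells apart, for 24 h in medium with 3% serum. The control group was BMDCs for which the labels name no tumour cells and give no plate, serum or time. The mouse strain and age are not given in the labels, and each group is 1 sample on 1 single-colour array of Hy3-labelled RNA. No test across samples was therefore possible, and every ratio below sets 1 array against another.

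let-7 miRNAs are short RNAs cut from hairpin precursors, and they repress target messages mainly by pairing of their seed, bases 2 to 8 from the 5′ end. They accumulate as cells differentiate, the RNA-binding protein LIN28 blocks the maturation of most of them, and known targets include Ras genes, Hmga2, Lin28 itself and cytokine messages such as Il6 and Il10. None of these messages was measured here.

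The mature sequences are shown because the capture probes must tell apart RNAs that differ by few bases. All 9 names matched a RefSeq mature miRNA of assembly GRCm38.p6, and the seed is in capitals.
mmu-let-7a: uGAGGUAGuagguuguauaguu
mmu-let-7b: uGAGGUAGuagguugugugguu
mmu-let-7c: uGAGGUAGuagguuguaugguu
mmu-let-7d: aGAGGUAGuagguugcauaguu
mmu-let-7e: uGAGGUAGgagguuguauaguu
mmu-let-7f: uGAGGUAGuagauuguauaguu
mmu-let-7g: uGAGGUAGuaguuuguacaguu
mmu-let-7i: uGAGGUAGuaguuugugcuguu
mmu-miR-98: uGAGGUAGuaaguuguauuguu

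The 9 sequences were all 22 bases long and carried 1 seed, GAGGUAG, so they differed only outside it. Against let-7a, counting positions from the 5′ end with the base of let-7a first, let-7c had A19G, let-7e U9G and let-7f G12A. let-7b had A17G and A19G, let-7d U1A and U16C, let-7g G12U and U18C, and miR-98 G11A and A19U. let-7i was the farthest from let-7a, with G12U, A17G, U18C and A19U. Of the 36 pairs of members, 4 differed by 1 base and 10 by 2 bases, so probes may share signal, and the values of closely related members are uncertain to that extent. Between 7 and 10 of the 22 bases were G or C, the fewest in let-7f and miR-98 and the most in let-7b. Elsewhere in RefSeq the same seed was found in let-7k and miR-1961, which have no probe of that name. miR-202-3p, whose seed differs by 1 base, read 6, 2.75 and 7.5 units on the ID8, CT-26 and control arrays, under the floor of 50 units used below.

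The 9 sequences lay in 12 hairpins on 7 chromosomes in GRCm38.p6. let-7a, let-7f and let-7d shared a cluster on the minus strand, with Mirlet7a-1 at chr13:48538179-48538272, Mirlet7f-1 at chr13:48537829-48537917 and Mirlet7d at chr13:48536012-48536114. Mirlet7c-2 (chr15:85706603-85706697) lay beside Mirlet7b (chr15:85707319-85707403), and Mirlet7f-2 (chrX:151912346-151912428) beside Mir98 (chrX:151913214-151913321), all on the plus strand. Further plus-strand copies lay near genes of the miR-99/100 and miR-125 families, namely Mirlet7a-2 (chr9:41536716-41536811), Mirlet7c-1 (chr16:77599657-77599750) and Mirlet7e (chr17:17830352-17830444). Mirlet7g (chr9:106178840-106178927, plus strand) and Mirlet7i (chr10:122985640-122985724, minus strand) stood apart from other let-7 genes.

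Features of the arrays bear on every ratio. The raw intensities of the 40 Hy3 marker spots, which are named for the dye, differed by only 1.75 to 4.75 units between the ID8 and control arrays, although they spanned 3029.75 to 5815 units on the ID8 array and 3027 to 5812.25 on the control array. Between the ID8 and CT-26 arrays the same spots differed by 18.5 to 1412.5 units in size. The other probes did not share this near-identity: among 141 with at least 500 corrected units on both arrays, 2 were within 4.75 units between ID8 and control. Those 141 include unnamed and reference RNA probes beside miRNA probes. The cause was not tested. Whether the ID8 and control values come from independent hybridisations is therefore in doubt, which bears on every ratio of ID8 over control, and the marker spots give no measure of spread for that comparison. For CT-26 over control the log2 ratios of the 40 marker spots had an SD of 0.15. In block 7 of the 8 blocks of the CT-26 array, mouse miRNAs had a median log2 ratio over control of -0.78, against -0.079 to 0.36 in the other blocks. No let-7 probe lies in block 7.

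The BMDC label was set against marker miRNAs. Of 7 myeloid and dendritic miRNAs, 7 on the ID8 array, 7 on the CT-26 array and 5 on the control array reached 50 units, with miR-155 at 49.5 and miR-223 at 49 units on the control array. Their summed corrected intensity was 2654.5, 2366.75 and 822.25 units on the ID8, CT-26 and control arrays. The sums were 90.25, 66 and 77.75 units for 3 lymphoid miRNAs, with 1, 0 and 0 of them at the floor, and 120.5, 95 and 138.5 units for 3 erythroid and megakaryocyte miRNAs, with 1 at the floor on each array. That 1 was not the same miRNA throughout. miR-451 read 70, 59.5 and 33.25 units on the ID8, CT-26 and control arrays, and miR-486 read 31, 20 and 98.5. For 8 epithelial miRNAs the sums were 227.25, 310.75 and 220 units, with 2 at the floor on each array (miR-194 and miR-200b). miR-194 read 53.25, 187 and 51.75 units on the ID8, CT-26 and control arrays, and miR-200b 141.5, 97.25 and 143.5. miR-200a, miR-205 and miR-429 stayed at or under 1.75 units. Since the cells were measured in bulk, fewer cells of a type and less RNA per cell cannot be told apart, and the part of cell make-up in the let-7 values was not tested.

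Members fell into a bright set, a middle set and a set under the floor, by background-corrected intensity. A probe's brightness also depends on its affinity, so these sets order probes and not amounts of RNA. let-7e gave 3176.25 units on the ID8 array, 2330.75 on the CT-26 array and 1940.25 on the control array, and let-7c, which differs from it by 2 bases, gave 3057, 2319.75 and 1900.5. let-7g, transcribed from its own locus, gave 2046, 1871.25 and 1117 units, and let-7f gave 1720.25, 1378 and 1060.5. Before scaling between arrays, all 4 were thus lowest on the control array and highest on the ID8 array. Most mouse miRNAs over the floor were also brighter on the ID8 array before scaling. There 129 of 165 read higher on the ID8 array than on the control array, and 131 of 175 higher than on the CT-26 array. On the CT-26 array 82 of 158 read higher than on the control array.

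The middle set held let-7a, let-7d and let-7i. let-7a, the member most conserved among animals, gave 286.5 units on the ID8 array, 260.5 on the CT-26 array and 152.25 on the control array. let-7d, whose hairpin lies in the same cluster as 1 of the 2 let-7a hairpins, gave 172.5, 116 and 64 units, so that its control value stood just over the floor. let-7i has 2 probes, and the brighter (design number 19580) gave 151.75, 192.75 and 38.25 units, while the other (9938) gave 70.5, 61.25 and 31.75. Both let-7i probes were thus over the floor beside either tumour line and under it on the control array. Of 177 mouse probes over the floor on both co-culture arrays, 159 were over it on the control array too.

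let-7b and miR-98 were under the floor on every array. let-7b read 14.25 units on the ID8 array, 15.5 on the CT-26 array and 2.25 on the control array, where the brightest of 21 empty spots read 1.75, 2.25 and 6 units. Its signal therefore exceeded every empty spot on the co-culture arrays only. miR-98, which shares a cluster with Mirlet7f-2, read 21, 17.75 and 25.25 units and was the single member name with its highest reading on the control array. Names with 2 probes did not always agree: the second probe read 4.5, 8.75 and 3.75 units for let-7d, 3.75, 4.5 and 2 for let-7g, and -3, -2 and -6 for let-7f. Those 3 dim probes gave no ratio, and each of these names rests on its other probe.

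**Figure D1:**
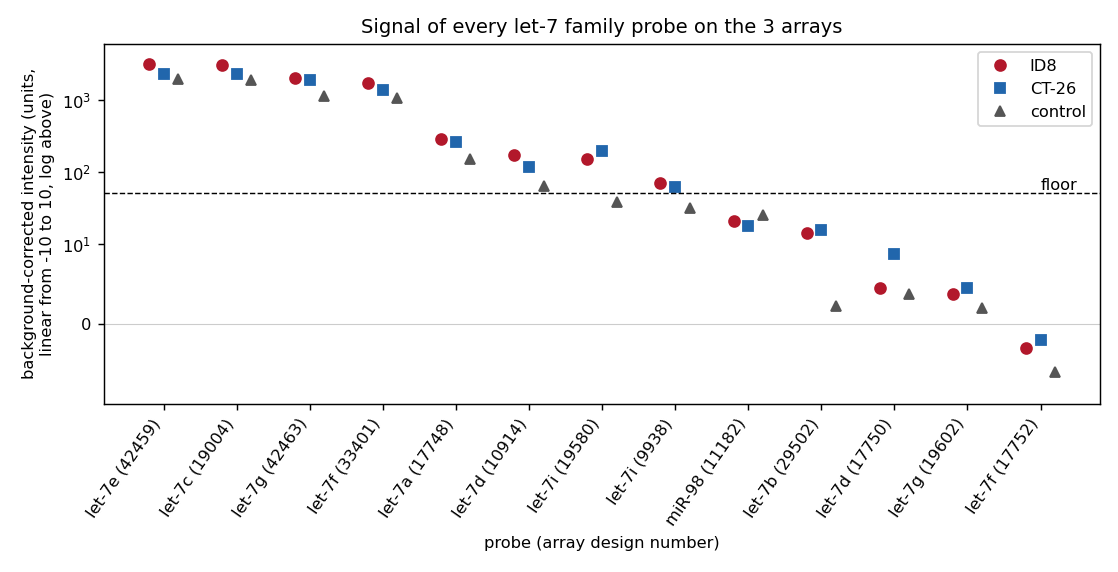
Background-corrected intensity (y axis, linear near 0 and logarithmic above 10 units) of the 13 let-7 family probes, named with their design numbers, on the ID8 (circles), CT-26 (squares) and control (triangles) arrays, with 1 array per group. The dashed line is the floor of 50 units, with 8 probes over it on the ID8 and CT-26 arrays and 6 on the control array. Of all 579 mouse probes, 192 reached it on the ID8 array, 178 on the CT-26 array and 175 on the control array.

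The first comparison asked how let-7 miRNAs in BMDCs kept beside ID8 cells compare with control BMDCs. Ratios were taken between normalized intensities, that is corrected intensity divided by 1 constant per array, for miRNAs with at least 50 corrected units on both arrays. let-7d was the member with the largest ratio, at 2.20-fold (normalized intensity 0.433 on the ID8 array and 0.197 on the control array), followed by let-7a at 1.54-fold (0.719 and 0.468) and let-7g at 1.49-fold (5.14 and 3.44). let-7e was 1.34-fold higher beside ID8 cells (7.98 and 5.97), let-7f 1.32-fold (4.32 and 3.26) and let-7c 1.31-fold (7.68 and 5.85). All 6 measured members had a log2 ratio above 0, between 0.39 and 1.14, although each of them turned below 0 with U6-snRNA-2 as the scaling probe. By comparison, 53.9% of 165 mouse miRNAs had a log2 ratio above 0. The member median was 0.50, beside 0.023 over all 165.

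A single member, let-7d, passed 2-fold, where 4.85% of all mouse miRNAs did so in that direction, and 0 passed it downward, against 3.03% of all. At 1.5-fold the members were let-7d and let-7a, with 9.09% of all miRNAs as the background. In the order of the 165 ratios from the highest, let-7d was at place 8, let-7a at 15, let-7g at 17, let-7e at 29, let-7f at 31 and let-7c at 33. Both calls depended on how background was treated. The log2 ratio of let-7d, the measured member nearest the floor, was 1.14, but 0.67 when 50 units were added to every value, 0.60 when the local background was left in and 0.55 with no floor, when its dim probe also counts, so it no longer passed 2-fold. The log2 ratio of let-7a was 0.62, but 0.44 with 50 units added, 0.42 with the background left in and 0.45 with normexp correction, all under 1.5-fold. For let-7i only a bound could be given, at least 2.46-fold higher beside ID8 cells by its brighter probe and at least 1.14-fold by the other. These bounds hold only for background-subtracted values with the authors' scaling. The scaling probes U6-snRNA-2 and SNORD3@ were themselves 2.41-fold and 1.26-fold higher on the ID8 array than on the control array. The 1.14-fold bound lies under both, so it does not hold with either as the reference. Before subtraction, and not scaled between arrays as the bounds are, the brighter probe read 201.25 units on the ID8 array and 98.25 on the control array. Those readings are less than 2.46-fold apart.

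The second comparison asked the same of BMDCs kept beside CT-26 cells. let-7d was 1.76-fold higher than in control BMDCs (normalized intensity 0.346 on the CT-26 array and 0.197 on the control array), let-7a 1.66-fold (0.777 and 0.468) and let-7g 1.62-fold (5.58 and 3.44). The other 3 were closer to 1, with let-7f at 1.26-fold (4.11 and 3.26), let-7c at 1.18-fold (6.92 and 5.85) and let-7e at 1.16-fold (6.95 and 5.97). Again all 6 had log2 ratios above 0, from 0.22 to 0.81, where 51.3% of 158 mouse miRNAs did. let-7c and let-7e fell below 0 under quantile normalization, at -0.087 and -0.036. Scaling to SNORD3@ also put let-7f below 0, and scaling to U6-snRNA-2 all 6. The median was 0.52, beside 0.0072 over all 158.

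No member passed 2-fold beside CT-26 cells, where 13.3% of all miRNAs were higher and 6.96% lower by that much. let-7d, let-7a and let-7g passed 1.5-fold, with 22.8% of all miRNAs as the background. With the local background left in, let-7g was the 1 member past it: let-7d then had a log2 ratio of 0.41 in place of 0.81 and let-7a 0.54 in place of 0.73. After quantile normalization let-7g fell short of it, at 0.31 in place of 0.70, while let-7d and let-7a passed. Scaled to U6-snRNA-2 or SNORD3@, 0 members passed 1.5-fold. let-7d, let-7a and let-7g stood at places 28, 30 and 31 of 158, while let-7f, let-7c and let-7e stood at 53, 65 and 66. The middle 50% of all ratios lay between -0.41 and 0.49 here, and between -0.27 and 0.30 for ID8 over control. let-7i had bounds of at least 3.72-fold higher by its brighter probe and at least 1.18-fold by the other. Again they hold only for background-subtracted values with the authors' scaling. U6-snRNA-2 was 2.10-fold and SNORD3@ 1.35-fold higher on the CT-26 array than on the control array, both over the 1.18-fold bound. Before subtraction and scaling, the brighter let-7i probe read 241.75 units on the CT-26 array and 98.25 on the control array, less than 3.72-fold apart. Without block 7 the median of all miRNAs was 0.17, so each member was also set against the other mouse miRNAs of its own block. The log2 ratio then stood 0.78 over the block median for let-7g, 0.69 for let-7d, 0.46 for let-7a, 0.28 for let-7c, 0.024 for let-7e and -0.023 for let-7f. In the ID8 comparison the same differences ranged from 0.21 (let-7f) to 1.09 (let-7d), all above 0. Both comparisons share the control array, so they are not independent of each other.

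**Figure D2:**
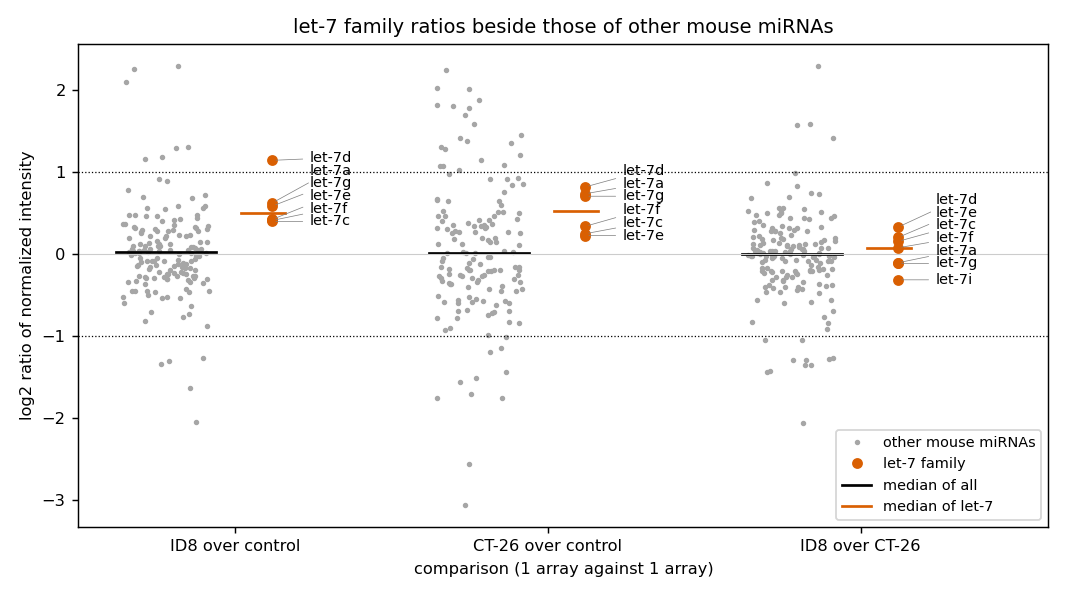
log2 ratio of normalized intensity (y axis) for let-7 family members (orange, labelled) and other mouse miRNAs (grey points) in the 3 comparisons of 1 array with another; black and orange lines are the medians of all mouse miRNAs and of the members, and dotted lines mark 2-fold. The members sit at 0.39 to 1.14 for ID8 over control and 0.22 to 0.81 for CT-26 over control, and on both sides of 0 for ID8 over CT-26.

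Scaling between arrays moved all of these ratios together. U6-snRNA-2, a probe for a spliceosomal RNA that is a common loading control, had a log2 ratio of 1.27 for ID8 over control and 1.07 for CT-26 over control, and SNORD3@, a small nucleolar RNA, of 0.33 and 0.43. Scaled to U6-snRNA-2, the median of all mouse miRNAs was -1.25 for ID8 over control and the let-7 median -0.77. For CT-26 over control they were -1.06 and -0.55. The let-7 median relative to that of all mouse miRNAs does not depend on a constant per array, and it stood 0.48 higher for ID8 over control and 0.51 higher for CT-26 over control. The first was 0.77 with no floor. The second was 0.26 at a floor of 100, 0.29 at a floor of 200, 0.31 after quantile normalization, 0.33 with a linear mean of all probes of a name, 0.35 without block 7 and 0.77 with no floor. Which reference reflects equal amounts of RNA was not tested.

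Ranks and shares within an array are also free of such constants. By rank of signal among the 579 mouse probes, let-7e stood at place 19 on the ID8 array, 24 on the CT-26 array and 23 on the control array, and let-7c at 20, 25 and 24. let-7g stood at 27, 29 and 35, let-7f at 31, 36 and 38, let-7a at 96, 90 and 110, and let-7d at 117, 131 and 159. All 6 probes ranked higher on the ID8 array than on the control array, by 4 to 42 places, where 41% of 166 measured mouse probes did. On the CT-26 array 4 of 6 ranked higher than on the control array, against 42.8% of 159 probes, and let-7c and let-7e ranked 1 place lower. Between the co-cultures, 5 of 8 probes ranked higher on the ID8 array than on the CT-26 array, where 50.3% of 177 did. The 13 probes together gave 4.35% of the summed signal of all mouse probes on the ID8 array, 4.22% on the CT-26 array and 2.74% on the control array. That share rests mainly on the 4 bright probes, and its denominator on the brightest mouse probes of each array.

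**Figure D3:**
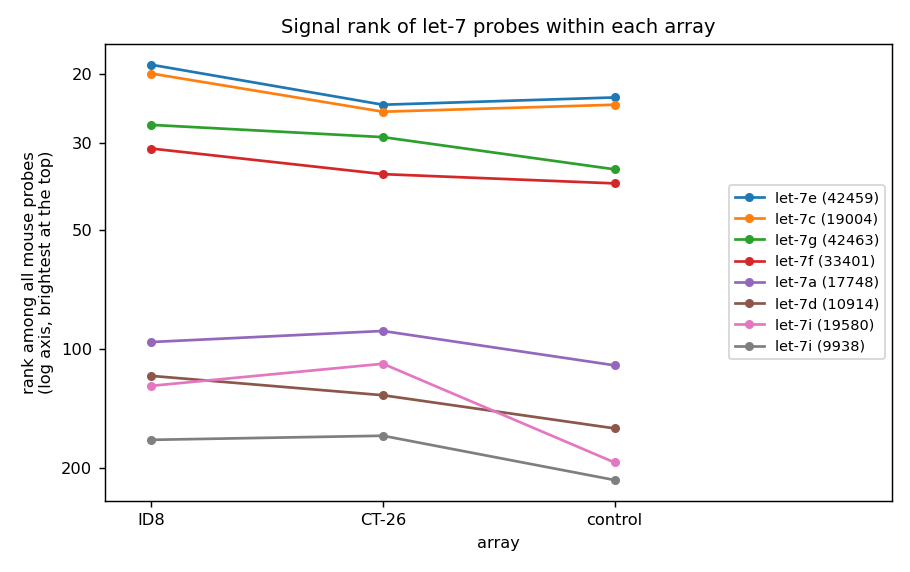
Rank of signal among 579 mouse probes (y axis, logarithmic, brightest at the top) on the ID8, CT-26 and control arrays for the 8 let-7 probes over the floor on both co-culture arrays. The 6 probes also over the floor on the control array all lie higher on the ID8 array than there, where 41% of 166 measured mouse probes did. The 2 let-7i probes are under the floor on the control array, so their higher place on the co-culture arrays follows from how probes were chosen for drawing. let-7e and let-7c lie 1 place lower on the CT-26 array than on the control array.

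Within the family, the dimmer probes had the larger ratios over control as deposited. The 4 probes with at least 1000 units on every array had log2 ratios of 0.39 to 0.58 for ID8 over control, and the dimmer let-7a and let-7d probes 0.62 and 1.14. For CT-26 over control the bright 4 spanned 0.22 to 0.70 and the dimmer probes 0.73 and 0.81. let-7g, from its own locus, was the bright member nearest to the dim ones in both comparisons. For let-7a this did not hold when background was treated otherwise. With the local background left in, let-7a had 0.42 for ID8 over control, within the 0.37 to 0.54 of the bright 4, and with normexp correction 0.45, within their 0.43 to 0.60. let-7d, at 0.60 and 0.64, was still above them. For CT-26 over control with the background left in, both dimmer probes, let-7a at 0.54 and let-7d at 0.41, lay within the 0.20 to 0.66 of the bright 4.

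The third comparison set the ID8 co-culture over the CT-26 co-culture, to ask whether let-7 levels differ with the tumour line. let-7d had a log2 ratio of 0.32, let-7e of 0.20, let-7c of 0.15 and let-7f of 0.072. let-7a stood at -0.11, let-7g at -0.12 and let-7i at -0.32. Thus 4 of 7 measured members were above 0, where 49.1% of 175 mouse miRNAs were, and 0 passed 2-fold in either direction, where 2.29% of all were higher and 6.29% lower. The member median was 0.072, beside -0.0072 over all. let-7i is the family's only repeated measurement here, and its 2 probes gave -0.59 and -0.046, a gap of 0.55 between probes of the same name on the same pair of arrays. With its brighter probe alone let-7i stood at -0.59, so its place depends on the probe.

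Both arms of the let-7d precursor were measured, and their ratios over control had opposite signs with the authors' normalization. Scaled to U6-snRNA-2 both arms were below 0, with let-7d at -0.13 beside ID8 cells and -0.26 beside CT-26 cells and let-7d* lower still, at -1.91 beside CT-26 cells. The hairpin of Mirlet7d (GRCm38.p6, chr13:48536012-48536114, minus strand) is shown with let-7d, on the 5′ side, and let-7d*, on the 3′ side, in capitals.
Mirlet7d: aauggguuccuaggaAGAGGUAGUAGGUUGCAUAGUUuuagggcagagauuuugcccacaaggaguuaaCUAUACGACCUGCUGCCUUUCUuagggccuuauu

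let-7d* gave 73.5 corrected units on the ID8 array, 50 on the CT-26 array and 86.5 on the control array, so its highest value was that of control BMDCs, where let-7d had its lowest. The log2 ratio over control was -0.53 beside ID8 cells and -0.84 beside CT-26 cells for let-7d*, against 1.14 and 0.81 for let-7d. The gap between the arms, 1.67 in the ID8 comparison and 1.65 in the CT-26 comparison, does not depend on a constant per array, and both probes lie in block 2. Both gaps rest on readings near the floor, since let-7d* reached exactly 50 units on the CT-26 array and let-7d 64 units on the control array. They were narrower with the local background left in. let-7d and let-7d* then had log2 ratios of 0.60 and -0.51 beside ID8 cells, and 0.41 and -0.57 beside CT-26 cells. With no floor the gap was narrower beside ID8 cells (0.55 and -0.53) and wider beside CT-26 cells (0.995 and -0.84). The other 6 star-form probes were under the floor on every array, the brightest being let-7c-1* with 21.75, 8.25 and 30 units on the ID8, CT-26 and control arrays. let-7d* was thus the only star form with a ratio, and it was below 0 in both co-cultures.

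Neighbouring miRNAs of the let-7 clusters gave few ratios. Of the 9 probe names for miR-99, miR-100 and miR-125 products, which lie within 100000 bp of let-7 genes, 3 were over the floor on all arrays. miR-125a-5p, which is encoded beside let-7e, gave 1487 units on the ID8 array, 1025.75 on the CT-26 array and 1138.25 on the control array. Its log2 ratio over control was 0.092 beside ID8 cells and -0.19 beside CT-26 cells, 0.33 and 0.41 below that of let-7e. miR-99b*, from the same cluster and named after its values were seen, gave 169.5, 101.5 and 113.25 units, with log2 ratios of 0.29 and -0.20. Scaled to SNORD3@, both were below 0 beside ID8 cells too, at -0.24 for miR-125a-5p and -0.045 for miR-99b*. miR-125b-3p gave 67.5, 54.25 and 63.25 units, with log2 ratios of -0.20 and -0.27. miR-125a-3p, the opposite arm of miR-125a-5p, read 30.5, 30 and 49.5 units. The mature miR-99a, miR-99b, miR-100 and miR-125b-5p probes read at most 9 units on any array.

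**Figure D4:**
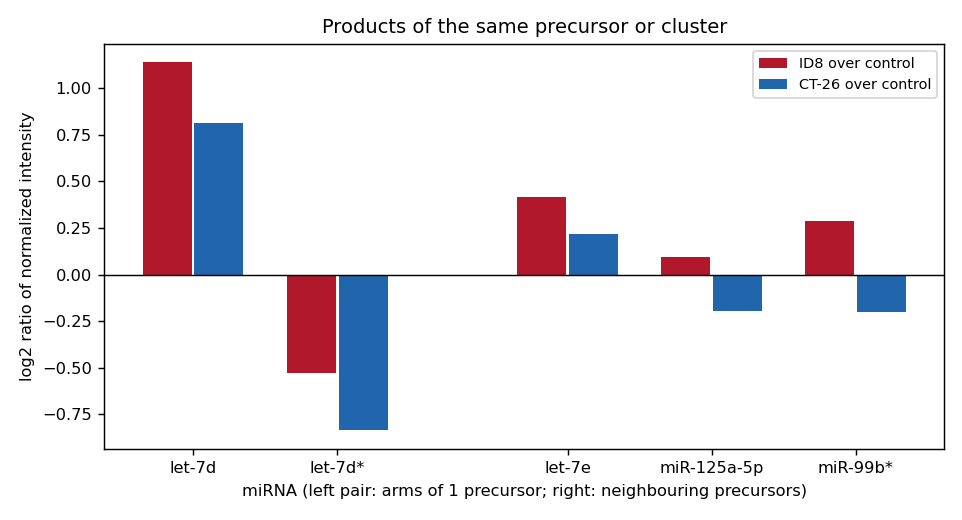
log2 ratio of normalized intensity over control (y axis) beside ID8 cells (red) and CT-26 cells (blue), with 1 array per group, for the 2 arms of the let-7d precursor and for let-7e with 2 products of its neighbours. let-7d lies above 0 (1.14 and 0.81) and let-7d* below it (-0.53 and -0.84), while miR-125a-5p and miR-99b* are above 0 for ID8 and below it for CT-26. Scaled to U6-snRNA-2 all 5 lie below 0 in both, and scaled to SNORD3@ miR-125a-5p and miR-99b* do.

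The pair of log2 ratios over control, ID8 first, placed the family median at 0.50 and 0.52. Among 152 other mouse miRNAs over the floor on all 3 arrays, the 5 nearest by Euclidean distance were miR-546 (0.47 and 0.52, distance 0.031), miR-30b* (0.43 and 0.50, distance 0.071), miR-17* (0.55 and 0.60, distance 0.097), miR-294* (0.47 and 0.65, distance 0.13) and miR-15a (0.46 and 0.65, distance 0.14). The likeness is over 2 ratios that share the control array.

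The direction of the let-7 median under each way of processing is shown beside that of all mouse miRNAs.

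**Figure D5:**
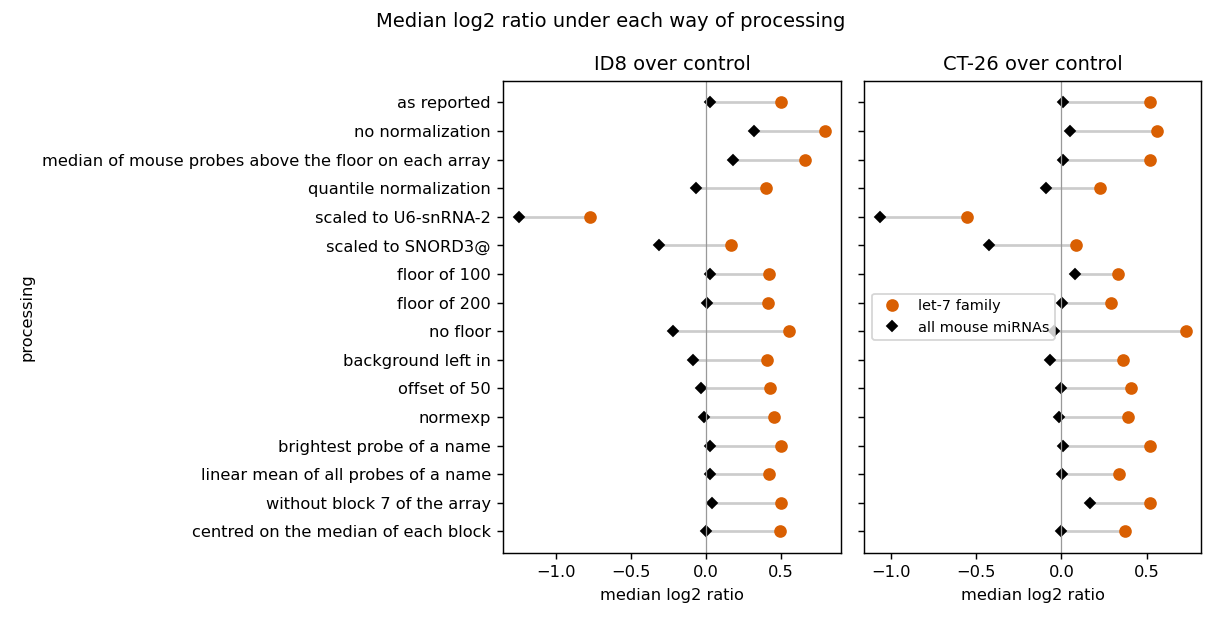
Median log2 ratio (x axis) of the measured let-7 members (orange circles) and of all mouse miRNAs (black diamonds) for ID8 over control and CT-26 over control under each way of processing (y axis). The let-7 median lies to the right of the other in every setting drawn. Settings that change only a constant per array (no normalization, own median, U6-snRNA-2, SNORD3@) cannot alter the distance between the medians. Scaling to U6-snRNA-2 puts both medians below 0, at -0.77 and -1.25 for ID8 over control.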

How the data were processed

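Total RNA was labelled with Hy3 from a miRCURY kit and hybridised to arrays, per the labels' protocols. Scanning used GenePix Pro 6 on a GenePix 4000B, per the series' design text. The deposited table gives a raw, a corrected and a normalized intensity for each of 1408 probes, per the file headers. The authors' normalized intensity equals corrected intensity divided by 398.25 (ID8), 335.25 (CT-26) or 325 (control), the median of the 159 mouse probes with at least 50 units on all 3 arrays, as found from the values. The series matrix holds the same intensities (largest difference 0). The table spells the line 1D8 and the labels ID8. Probe names are the table's.

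Log2 ratios were computed from the deposited normalized intensity in Python 3.11.15, averaging on log2 the probes of a name at or over the 50-unit floor. Counts used 2-fold. A bound sets the brighter value against the higher of the dim probe's own value and the lowest mouse value over the floor on the dim array. The calculation was tested on simulated data. Alternatives covered scaling, floor, background (normexp in limma 3.58.1, offset 50), probe averaging and fold; 2 on array position were chosen after seeing the data. Named miRNAs were all members, their star forms, cluster neighbours, miR-202-3p, the 5 nearest patterns, marker miRNAs and scaling probes. Members and lists were chosen with earlier results of these data known. With 1 array per group no p-value was computed, and the number of arrays limits the precision.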

Additional observations from a re-analysis of the deposited data

Results flagged for a closer look

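miR-125a-5p had a log2 ratio over control of 0.092 beside ID8 cells and of -0.19 beside CT-26 cells, and miR-99b*, from the same cluster as let-7e, of 0.29 and -0.20. They are listed because the ratios have opposite signs in the 2 co-cultures. The signs were the same, all below 0, when the arrays were scaled to SNORD3@ (-0.24 and -0.62 for miR-125a-5p, -0.045 and -0.63 for miR-99b*) or to U6-snRNA-2 (-1.18 and -1.27 for miR-125a-5p, -0.98 and -1.27 for miR-99b*). Set against its block, miR-125a-5p was at -0.099 beside ID8 cells and -0.55 beside CT-26 cells. The difference was not tested, since each group has 1 array.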

How the results depend on the processing

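The let-7 median log2 ratio for ID8 over control (0.50) was 0.79 without normalization, 0.66 when each array was scaled to its own median, 0.17 scaled to SNORD3@ and -0.77 scaled to U6-snRNA-2. For CT-26 over control (0.52) it was 0.23 after quantile normalization, 0.087 scaled to SNORD3@, -0.55 scaled to U6-snRNA-2, 0.33 at a floor of 100, 0.29 at 200, 0.73 with no floor, 0.36 with the background left in and 0.34 with a linear mean of all probes of a name. For ID8 over CT-26 (0.072) it was 0.32 without normalization, 0.23 scaled to each array's own median, -0.13 scaled to U6-snRNA-2 and -0.11 with no floor. Relative to all mouse miRNAs, the ID8 over control median (0.48) was 0.77 with no floor. The CT-26 over control one (0.51) was 0.31 after quantile normalization, 0.26 at a floor of 100, 0.29 at 200, 0.77 with no floor, 0.33 with the linear mean and 0.35 without block 7. The ID8 over CT-26 one (0.079) was -0.034 with no floor. let-7d was the 1 member past 2-fold for ID8 over control, and the count was 0 under U6-snRNA-2 or SNORD3@ scaling, at floors of 100 and 200, with the background left in, with an offset of 50, with normexp, with the linear mean and at 4-fold. It was 2 at 1.5-fold (let-7a and let-7d). With no floor it was also 2, but these were let-7b and let-7i, which lie under the floor on the control array, and let-7d had a log2 ratio of 0.55. Scaled to U6-snRNA-2, the log2 ratio of let-7d was -0.13. For CT-26 over control the count of 0 became 2 with no floor (let-7b and let-7i) and 3 at 1.5-fold. The cause of these shifts was not tested, apart from those a changed floor, fold or constant per array makes by construction. The linear mean likewise left let-7d out of both comparisons with control by construction, with 5 members remaining. Its dim probe brought its mean on the control array under the floor. Movement was judged against the SD of the Hy3 marker spots (0.15), taken from CT-26 over control also for ID8 over control. No paired analysis was possible because each group has 1 array.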
